A study of Mus musculus with 4 samples.

Results

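Rab3a, Rab3b, Rab3c, Rab3d, Rab20, Rab27a and Rab27b are 7 genes of small Rab GTPases that act in secretory and endosomal traffic. They were chosen by their levels by cell type in young and aged mice, as seen in earlier results of the same data, and found here by symbol, so all their age differences here are a description and carry no test. Where the fit over all genes gave a member an adjusted p under 0.05, this is named below as a call. Such a call is not read as support. All 7 were found among the 52636 genes of the count matrices. RNA of single cells was counted in glomeruli, the filtering tufts of the kidney, from 2 libraries of young and 2 of aged untreated mice (10x Genomics, 3' ends). The labels give the age only as young or aged and the tissue as kidney, and they state no age in months, sex, strain or number of animals. Glomeruli were held back with magnetic beads perfused through the heart and were then digested to single cells, so cells next to the tuft can also be present.

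Rab GTPases switch between a GTP-bound form on a membrane and a GDP-bound form in the cytosol. The Rab3 group works in regulated exocytosis of secretory vesicles, and Rab3 proteins are best known from synapses and endocrine cells. Rab27a and Rab27b direct lysosome-related organelles and other secretory granules to the plasma membrane, which in endothelial cells include the Weibel-Palade bodies that store von Willebrand factor and P-selectin. Rab20 belongs to neither group and is known from endosomes and phagosomes, and its expression is known to respond to hypoxia and inflammatory signals.

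Sequences at the start sites of Rab3c, Rab3a and Rab20 are shown because the levels of these 3 genes in mesangial cells and podocytes carry most of the differences described below. The first 2 lines are the bases upstream of a RefSeq start site that lie outside annotated exons, and the last is a stretch of 30 bases of the Rab20 window (RefSeq, GRCm38.p6, each on the strand of its gene, 5′ to 3′). The Rab3c and Rab20 stretches lie inside the annotated spans of their genes, and the Rab3a stretch lies outside its span. Capitals mark ACGTG or TGACG on either strand.
Rab3c, chr13:110280207-110280456, minus strand: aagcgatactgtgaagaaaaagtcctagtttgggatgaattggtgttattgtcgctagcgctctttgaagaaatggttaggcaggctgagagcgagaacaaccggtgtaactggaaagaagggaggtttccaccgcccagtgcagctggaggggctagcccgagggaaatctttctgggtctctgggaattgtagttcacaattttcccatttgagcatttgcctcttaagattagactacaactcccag
Rab3a, chr8:70754453-70754678, plus strand: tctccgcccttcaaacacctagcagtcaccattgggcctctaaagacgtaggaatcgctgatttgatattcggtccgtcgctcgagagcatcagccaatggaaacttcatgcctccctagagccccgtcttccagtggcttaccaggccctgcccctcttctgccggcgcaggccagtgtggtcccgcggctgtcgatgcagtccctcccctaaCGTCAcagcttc
Rab20, chr8:11478669-11478698, minus strand: cggccgggcaccCACGTGgtcgcagggctg

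The Rab20 stretch held CACGTG, which contains ACGTG on both strands, and the Rab3a stretch held TGACG on the minus strand. The Rab3c window held neither of them, and none of the 3 windows held TGANTCA or the motif searched for NF-kB. Of 32851 RefSeq windows of the 250 bases upstream of a start site, 16.6% held ACGTG, 6.02% CACGTG, 17.8% TGACG, 6.75% TGANTCA and 17.6% the NF-kB motif, each searched on both strands. A match is a run of letters and not a shown binding site.

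The 4 libraries held 33323 barcodes with 18457791 to 42046542 UMIs (unique molecular identifiers, counts of single RNA molecules) each, and 28000 cells were kept. Young replicate 2 stood apart, with a median of 1258 UMIs per kept cell against 2715 to 3730 in the other libraries, and with 58.5% of its cells in clusters that carried markers of unrelated classes, against 0.544% to 1.71%. Any pair of libraries shared 5 to 21 cell barcodes. Clusters were called podocyte-like, endothelial-like, mesangial-like or parietal epithelial-like from marker lists, and they are named below without the suffix. These classes held 591 to 1763, 1380 to 6023, 189 to 701 and 31 to 50 cells per library, and every marker of a class was detected in each library of that class (8 of 8, or 7 of 7 for parietal epithelial cells). Levels are given in CPM, the UMIs of a gene per 1000000 UMIs of its class in 1 library, and since each UMI counts 1 RNA molecule by its 3' end no length correction was made. The labels do not say that libraries come from separate animals, so SD and p-values measure only the spread between these libraries. Fewer expressing cells and less RNA per cell cannot be told apart in a class sum.

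Over all barcodes the members gave 18657 UMIs of Rab3b, 13610 of Rab20, 3103 of Rab3a, 2671 of Rab3c, 1175 of Rab3d, 460 of Rab27a and 178 of Rab27b. Of the UMIs in named classes, 1975 of 1991 for Rab3c came from mesangial cells and 14577 of 14767 for Rab3b from podocytes. Rab27a and Rab27b gave 295 and 118 in named classes.

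**Figure D1:**
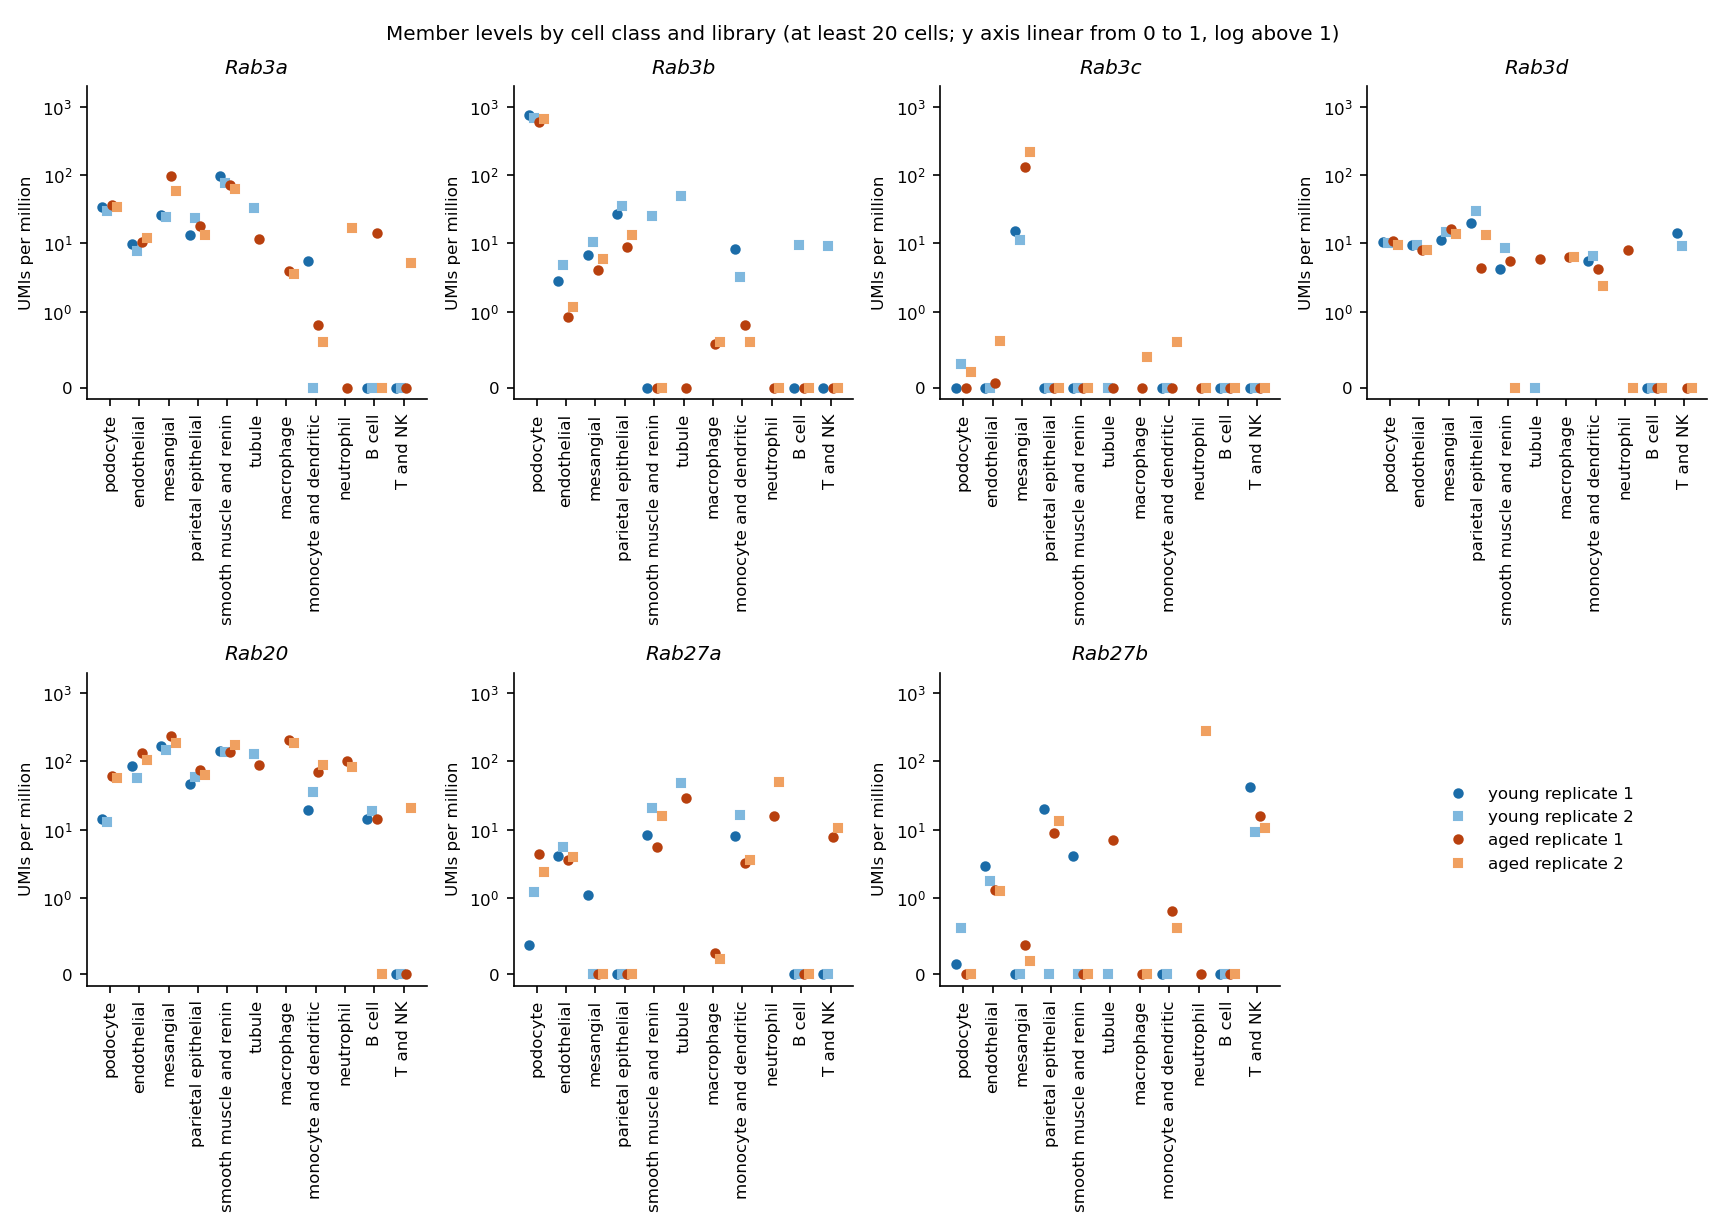
Level of each member (CPM, linear from 0 to 1 and logarithmic above) in each cell class, with 1 point per library that held at least 20 cells of the class. Rab3b stands out in podocytes at 586 to 749 and Rab3c in mesangial cells at 11.2 to 215, whereas Rab20 is spread over many classes.

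Rab3c (ENSMUSG00000021700, chr13:110054187-110280996, minus strand, GRCm38), a vesicle GTPase known mainly from neurons, was a mesangial gene in these libraries and was far higher in the aged ones. Mesangial cells are the contractile support cells between the capillaries. Their Rab3c level was 15.2 and 11.2 CPM in young replicates 1 and 2, and it reached 129 and 215 CPM in aged replicates 1 and 2. These levels rest on 27, 13, 662 and 1273 UMIs. Both aged libraries lay far above both young ones, with means of 172 ± 60.6 (SD, n = 2) and 13.2 ± 2.86 (SD, n = 2), a ratio of 13.0. The edgeR fit across all genes gave a log2 difference of 3.76 with an SE of 0.28. Without young replicate 2, the library that stood apart, that difference was 3.59. Without aged replicate 1 it was 4.06 and no gene of the class was called.

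Outside mesangial cells Rab3c was close to 0. Podocytes held 0 and 1 UMIs in young libraries and likewise in aged ones. Endothelial cells held none in either young library, and 1 and 10 UMIs in aged replicates 1 and 2, never more than 1 in a cell. Smooth muscle and renin cells, the mural cells of the arterioles and close relatives of mesangial cells, held 0 UMIs in all 4 libraries, where 3 UMIs would correspond to 12.5 to 23.6 CPM. Parietal epithelial, tubule, neutrophil, B and T and NK cells also held none.

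The share of mesangial cells with at least 1 Rab3c UMI was 8.36% and 6.88% for young mice and 41.9% and 59.0% for aged mice. The same share among aged endothelial cells was 0.0166% and 0.232%, at median depths of 2340 and 3227 UMIs per cell against 4577 and 7272 in aged mesangial cells. After each cell was thinned to 1000 UMIs the mesangial shares were 1.10% and 0.546% in young and 9.89% and 17.6% in aged libraries, so both aged libraries were also higher at equal depth. Cells with 5 or more UMIs made up 4.71% and 17.9% of the aged mesangial cells and none of the young ones. The richest 10% of cells held 54.7% and 46.6% of all Rab3c UMIs in aged libraries. In both young libraries they held 100%, which was fixed in advance because under 10% of the cells had a UMI. At equal depth the variance of UMIs per cell over their mean was 1.10 and 1.29 in aged and 0.993 and 1.0 in young cells. So few young cells kept a UMI at that depth that their value could hardly differ from 1. Neither the richest 10% nor this value therefore compares the ages. The highest single cell had 26.

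**Figure D2:**
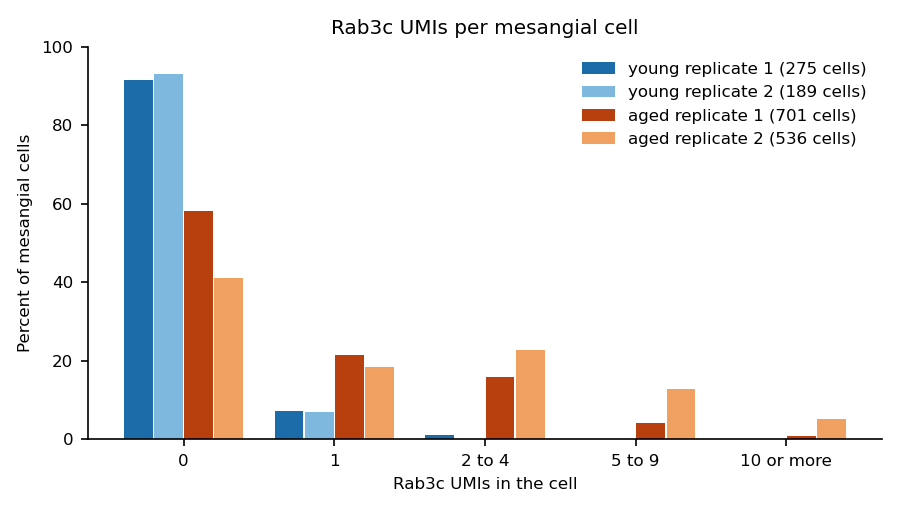
Percent of mesangial cells by the number of Rab3c UMIs in the cell, 1 bar per library. Cells without a UMI make up 91.6% and 93.1% of the young cells and 58.1% and 41.0% of the aged cells, and only aged cells reach 5 or more.

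Mesangial cells fell into 2 clusters that young and aged libraries filled unequally. Cluster 9, led by genes that include Serpine2, Cxcl13, Cxcl1 and Ccl2, numbered 24 and 20 cells from young mice against 673 and 521 from aged mice. Cluster 14, led by Sfrp2, numbered 251 and 169 against 28 and 15. Itga8 and Ptn were among the leading genes of both clusters. The age comparison of mesangial cells is therefore in large part one between these clusters. In cluster 9 the young libraries gave 1 and 0 Rab3c UMIs, at 10.2 (95% Poisson interval 0.258 to 56.8) and 0 (up to 54.6) CPM. The aged libraries gave 130 (120 to 140) and 216 (204 to 228) there. In cluster 14 the young levels were 15.5 (10.1 to 22.7) and 11.9 (6.32 to 20.3), and the few aged cells gave 78.4 (35.8 to 149) and 125 (62.2 to 223), from 9 and 11 UMIs in 5 and 2 cells. The aged values were thus above the young ones within both clusters, and in cluster 14 they rest on very few cells. These intervals cover counting error only.

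A further 39 cells of aged replicate 1 and 73 of aged replicate 2 formed clusters nearest to mesangial cells but below the marker limit, and no young cell did. Their Rab3c levels were 43.3 and 82.1 CPM. With them added to the mesangial class, the log2 ratio of the aged to the young mean was 3.61 in place of 3.70.

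Among aged mesangial cells those with a UMI of Cdkn2a, the gene of the senescence-associated inhibitor p16, were 84 and 93 in number, and each young library had 1 such cell. In aged replicate 1 Rab3c was at 150 (128 to 174) CPM in the cells with a Cdkn2a UMI and 123 (113 to 135) in those without. In aged replicate 2 it was at 243 (220 to 267) and 203 (190 to 217). Cells with a Cdkn2a UMI were deeper, with medians of 8618 and 15849 UMIs against 4053 and 5810. Rab3c was present in aged mesangial cells of either kind.

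**Figure D3:**
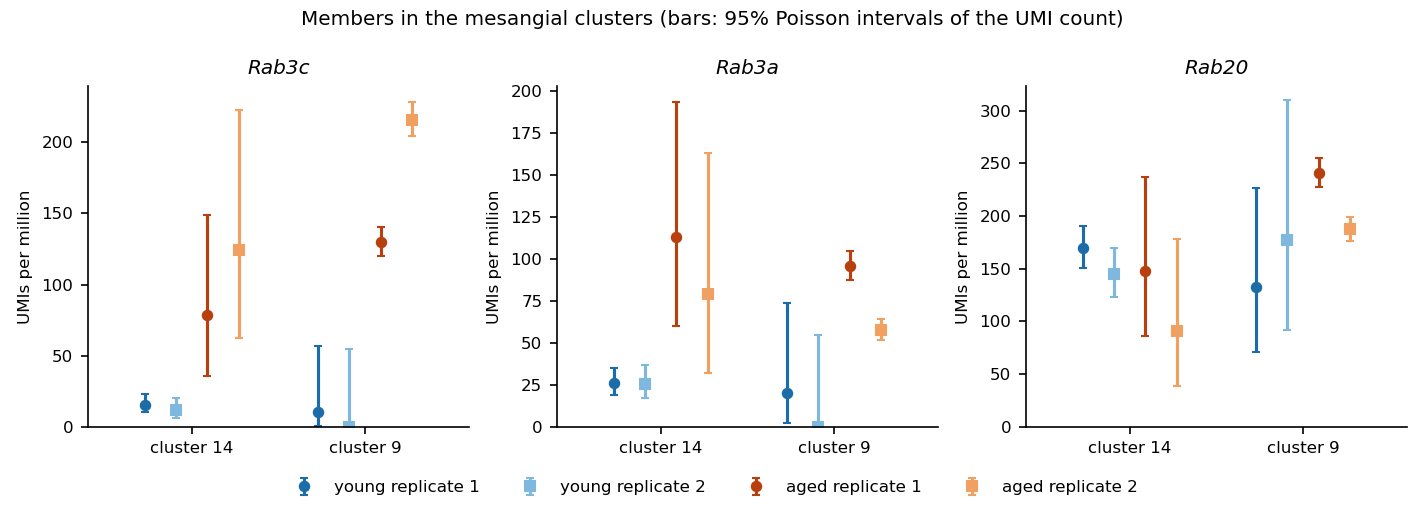
Levels of Rab3c, Rab3a and Rab20 in the mesangial clusters (CPM, 1 point per library, bars are 95% Poisson intervals of the UMI count). Rab3c and Rab3a are higher in the aged libraries within both clusters, and the wide bars belong to the 15 to 28 cells that the less common age gives to each cluster.

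Rab3a (ENSMUSG00000031840, chr8:70754679-70758677, plus strand, GRCm38), the synaptic vesicle Rab, was present in several classes and was also higher in aged mesangial cells. Its mesangial level was 25.9 and 24.1 CPM for young mice and 96.2 and 57.8 for aged mice, from 46, 28, 494 and 343 UMIs. The groups did not overlap, and the means were 25.0 ± 1.31 and 77.0 ± 27.1 (SD, n = 2 each). The fitted log2 difference was 1.72 (SE 0.27). It was 1.28 without aged replicate 1, 1.80 without young replicate 1 and 1.68 without young replicate 2. Within cluster 14 Rab3a was at 26.3 and 25.6 CPM in young cells and 113 and 79.3 in aged cells, the latter from 13 and 7 UMIs.

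Among cells of aged mesangium with a Rab3a UMI, Rab3c was at 141 (128 to 154) CPM in aged replicate 1, against 111 (96.8 to 126) in the cells without. In aged replicate 2 it was at 226 (211 to 243) against 198 (181 to 217). Cells with a Rab3a UMI were deeper, with medians of 8428 and 15352 UMIs against 3248 and 4756, and Rab3c UMIs were found in both kinds of cell.

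Smooth muscle and renin cells had the highest mean Rab3a of all classes, 76.6 ± 13.9 CPM (SD, n = 4), and their range of 62.9 to 95.7 overlapped that of mesangial cells. Both aged libraries lay below both young ones there, at 72.0 and 62.9 against 95.7 and 76.0. These levels rest on 13 and 8 UMIs in aged and 23 and 18 in young libraries. Markers of smooth muscle and renin cells summed to 104 and 120 CPM in young mesangial cells and 248 and 265 in aged ones, with 5 of the 6 markers detected in each, which is 0.331% to 0.846% of their level in their own class, and their part in the difference was not tested. Podocytes had 33.6 and 30.1 in young and 36.7 and 34.4 in aged libraries, and endothelial cells had 9.94 and 7.80 in young and 10.6 and 11.8 in aged libraries. Their log2 differences were 0.20 (SE 0.16) and 0.43 (SE 0.22). On the other strand Rab3a overlaps Mpv17l2, Rab3b overlaps Gm12736 and 8030443G20Rik, Rab20 overlaps E230013L22Rik and Rab27b overlaps AC163398.1. On their own strand Rab20 overlaps Gm20100 and Rab27a the pseudogene Gm27186. Their counts are uncertain to that extent, and whether the counting used strand is not given in the sources used here.

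Rab3b (ENSMUSG00000003411, chr4:108879063-108943324, plus strand, GRCm38), a Rab3 form known from secretory epithelia and endocrine cells, was the podocyte member. Podocytes are the epithelial cells whose foot processes form the outer layer of the filter. Rab3b reached 749 and 681 CPM in young and 586 and 657 in aged podocytes, where 89.8% to 96.7% of cells had a UMI. The mean over the 4 libraries was 669 ± 67.4 (SD, n = 4), and no other named class came above 48.6 in any library with at least 20 cells. The aged values lay below both young ones, with a log2 difference of -0.15 (SE 0.14), so the gap was about the size of its own error. By cluster the levels were 695 and 649 in young and 527 and 613 in aged libraries in cluster 1, and 868 and 798 against 846 and 858 in cluster 7, where the groups overlapped.

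In endothelial cells Rab3b was at 2.84 and 4.78 CPM for young mice and 0.929 and 1.17 for aged mice, from 18, 19, 15 and 19 UMIs. The fitted log2 difference was -1.67 (SE 0.41), and it was -3.03 with cells named one by one. Among the alternatives that kept every library, the call was lost with DESeq2 (-1.70) and with no filter on low counts (-1.64). When 1 of the 4 libraries was left out the difference was -1.99 to -1.36. Nearly all of these were single UMIs in 15 to 19 cells per library. All 8 podocyte markers were also detected in the endothelial sums, at a summed 939 and 1317 CPM in young cells and 831 and 804 in aged cells, which is 3.63% to 5.94% of their level in podocytes. The part of podocyte RNA in the Rab3b difference was not tested. The mesangial level of Rab3b was 6.77 and 10.3 in young and 4.09 and 5.90 in aged libraries, and in young replicate 1 all 12 UMIs came from 3 cells.

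Rab3d (ENSMUSG00000019066, chr9:21907491-21918192, minus strand, GRCm38), which is known from zymogen and other large granules, was low and even. Its level was 9.31 to 10.8 CPM in podocytes, 8.11 to 9.56 in endothelial cells and 11.3 to 16.2 in mesangial cells over the 4 libraries. Parietal epithelial cells, the lining of Bowman's capsule, gave 4.42 to 29.7 from 13 UMIs in all. The log2 differences between aged and young were 0.0019 (SE 0.24) in podocytes, -0.11 (SE 0.22) in endothelial cells and 0.34 (SE 0.29) in mesangial cells. In endothelial cells both aged libraries lay below both young ones, and in podocytes and mesangial cells the ages overlapped.

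Rab20 (ENSMUSG00000031504, chr8:11453518-11478710, minus strand, GRCm38) was spread over many classes and was higher in aged podocytes and aged endothelial cells. In podocytes it was at 14.5 and 13.2 CPM for young mice and 61.4 and 56.6 for aged mice, from 112, 43, 346 and 280 UMIs. The means were 13.8 ± 0.904 and 59.0 ± 3.35 (SD, n = 2 each), a ratio of 4.27, and the fitted log2 difference was 2.12 (SE 0.17). The share of podocytes with a UMI was 5.28% and 6.26% in young and 22.8% and 24.7% in aged libraries, and 1.48% and 1.55% against 5.06% and 3.52% after thinning to 1000 UMIs. With cells of the mixed clusters kept, which come mostly from young replicate 2, the log2 difference was 1.41 and fell short of an adjusted p of 0.05.

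The podocyte difference lay in cluster 1. There Rab20 was at 18.8 and 15.7 CPM in young cells and 74.6 and 68.6 in aged cells, whereas in cluster 7 it was at 4.95 and 4.23 in young cells and 3.80 and 3.32 in aged cells. The cluster 7 values rest on 3 to 12 UMIs per library. Markers of macrophages, a class high in Rab20, summed to 6.46 and 8.28 CPM in young and 11.2 and 14.4 in aged podocytes, or 0.0391% to 0.0871% of their level in macrophages. Of the 7 macrophage markers 5 were at 0 in each young podocyte sum, and 0 and 1 in the aged ones. Markers of smooth muscle and renin cells, also high in Rab20, summed to 20.0 and 21.2 CPM in young and 51.4 and 49.4 in aged podocytes, with 2 to 4 of the 6 at 0, or 0.0638% to 0.164% of their own level. The part of either in the Rab20 difference was not tested.

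In endothelial cells Rab20 was at 85.0 and 57.6 CPM for young mice and 133 and 104 for aged mice, from 539, 229, 2146 and 1692 UMIs. The groups did not overlap, and the fitted log2 difference was 0.83 (SE 0.18). It was 0.55 without young replicate 2 and 1.22 without young replicate 1, and in either case no gene of the class was called. Of the 8 endothelial clusters with at least 20 cells in every library, 5 had both aged libraries above both young ones and 3 overlapped. Cluster 0, led by genes that include Sele and Il6, had 184 and 96.0 in young and 180 and 162 in aged libraries, and the libraries gave 135 and 75 young against 2132 and 1112 aged cells to it. The part of these cell numbers in the class difference was not tested.

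**Figure D4:**
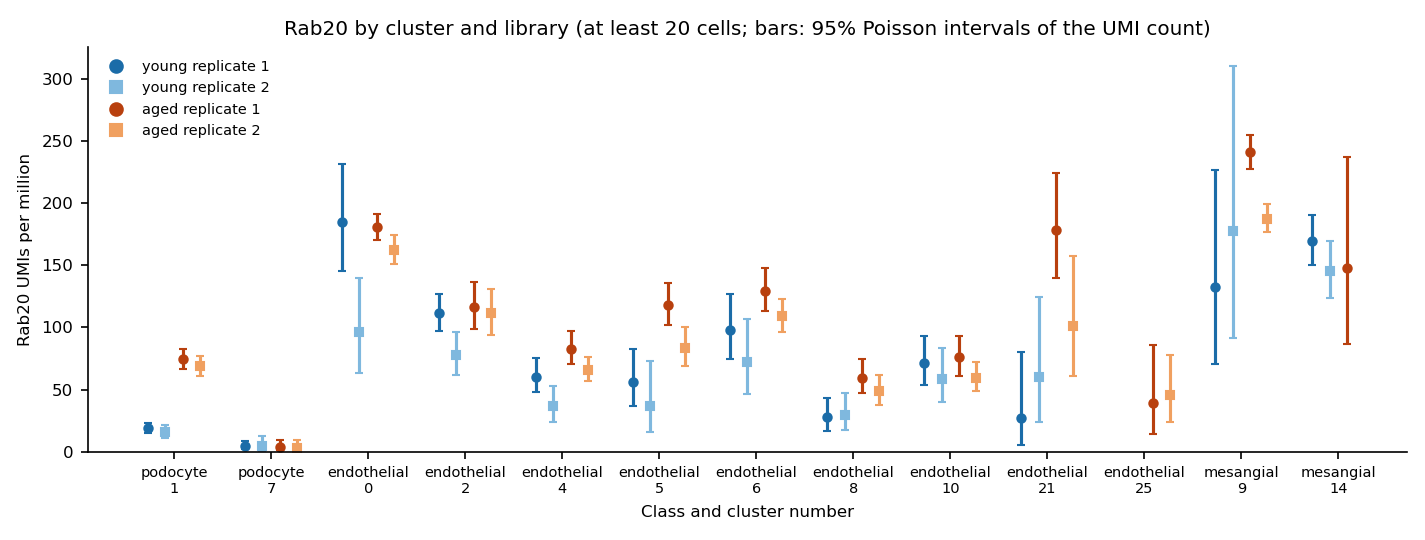
Rab20 level (CPM) by cluster of podocytes, endothelial and mesangial cells, 1 point per library with at least 20 cells, bars are 95% Poisson intervals of the UMI count. In podocyte cluster 1 the aged libraries are at 74.6 and 68.6 against 18.8 and 15.7 in the young ones, and in cluster 7 all 4 are under 5.

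Mesangial Rab20 was at 167 and 147 in young and 239 and 186 CPM in aged libraries, with a log2 difference of 0.54 (SE 0.17). In cluster 9 they were 133 and 177 against 241 and 188. In cluster 14 the aged libraries, at 148 and 90.6, did not lie above the young ones at 169 and 145. Parietal epithelial cells gave 46.7 and 59.3 in young and 75.2 and 63.6 in aged libraries from 53 UMIs in all, a log2 difference of 0.37 (SE 0.41). By class mean, Rab20 was at 185 ± 39.4 in mesangial cells and 148 ± 16.6 in smooth muscle and renin cells (SD, n = 4 each), and their ranges overlapped. Macrophages had enough cells only in the aged libraries, at 198 ± 13.5 against 212 ± 37.3 in aged mesangial cells (SD, n = 2 each), and these ranges overlapped too. Among the glomerular classes endothelial cells followed at 94.9 ± 31.7, parietal epithelial cells at 61.2 ± 11.8 and podocytes at 36.4 ± 26.2 (SD, n = 4 each).

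Rab27a (ENSMUSG00000032202, chr9:73044854-73097629, plus strand, GRCm38) was scarce in the glomerulus. Endothelial cells had 4.10 and 5.53 CPM in young and 3.65 and 4.06 in aged libraries, with a log2 difference of -0.17 (SE 0.29). In podocytes there were 3 and 4 UMIs in young and 25 and 12 in aged libraries, or 0.387, 1.23, 4.44 and 2.43 CPM. The fitted log2 difference was 2.42 (SE 0.59). Its call was lost in some of the alternatives that kept every library. These were DESeq2, cells named one by one, a mitochondrial limit of 10%, resolution 2 and mixed clusters kept. The difference was 1.58 without young replicate 1 and 1.19 with mixed clusters kept. Mesangial and parietal epithelial cells held 2 and 0 UMIs in all. Aged tubule cells, which come from outside the tuft, had 29.1 and 40.7 CPM, in 23 of 80 and 7 of 19 cells.

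Rab27b (ENSMUSG00000024511, chr18:69979131-70141605, minus strand, GRCm38), the close relative of Rab27a, was the scarcest member. Endothelial cells had 19 and 7 UMIs in young and 21 and 21 in aged libraries, or 2.997, 1.76, 1.30 and 1.29 CPM, with a log2 difference of -0.82 (SE 0.42). Podocytes held 3 UMIs in all and mesangial cells 3. Neutrophils of aged replicate 2 gave 17 UMIs, but these lay in 3 of 25 cells and 11 of them in 1 cell, and those of aged replicate 1 gave 0. T and NK cells had 8 UMIs in all.

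Counted over the whole fit with an adjusted p under 0.05 (edgeR quasi-likelihood test, Benjamini-Hochberg), 2 of the 5 members tested in podocytes were called higher in aged libraries and 0 lower, where 3.96% and 2.02% of all 10878 genes tested were. In endothelial cells 1 of 6 members tested was called higher (Rab20) and 1 lower (Rab3b), where 3.99% and 2.02% of 13148 genes were. In mesangial cells 2 of 5 (Rab3a and Rab3c) were called higher and 0 lower, where 4.28% and 2.34% of 10922 genes were. In parietal epithelial cells only Rab20 was tested and it was not called, also by DESeq2 and at an unadjusted p of 0.05, where 1.76% and 1.3% of 3755 genes were called higher and lower. Rab27a, with 3 and 4 UMIs in young podocytes against 25 and 12 in aged ones, passed the filter on low counts there through its aged libraries. The members were chosen on this contrast, so nothing is read from these counts.

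The genes that work with these Rabs were taken as a list of 76 symbols in 6 roles, of which 75 were found. The list was made with earlier results of the data known. In podocytes 4 of 50 tested genes rose and 0 fell, where 3.96% and 2.02% of all 10878 genes tested did. Exph5, Rims2 and Rab32 passed the filter on low counts through the aged libraries, so a fall could hardly have been called for them. Exph5 (Slac2-b), an effector of Rab27, rose from 0.646 and 0.920 CPM to 6.56 and 6.88 (log2 3.20, SE 0.47, edgeR adjusted p = 2.2e-05). These levels rest on 5 and 3 UMIs in young and 37 and 34 in aged libraries. Stx11, a SNARE protein of granule fusion, rose from 9.69 and 9.51 to 44.0 and 44.1 (log2 2.24, adjusted p = 6.4e-10). Rims2, a Rab3 effector of the active zone, and Rab32, a Rab of lysosome-related organelles, rose at low levels. Rims2 went from 0.258 and 1.84 to 3.55 and 2.83 CPM and Rab32 from 0.517 and 0.920 to 2.66 and 3.64 CPM, on 2 to 6 UMIs per young library. Each kept its call in 6 of 14 alternative settings, and DESeq2 called neither. The list's median log2 difference was 0.07 beside 0.0047 over all genes tested. With DESeq2 the count was 2 genes.

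In endothelial cells 9 of 60 tested genes rose and 1 fell, where 3.99% and 2.02% of all 13148 genes tested did. Of the 7 cargo genes of Weibel-Palade bodies 5 were among those that rose. Selp (P-selectin) rose from 3.94 and 5.53 CPM to 20.1 and 39.9 (log2 2.82, SE 0.31, edgeR adjusted p = 9.2e-06), and Vwf, the clotting factor that forms these bodies, from 1.26 and 1.01 to 6.63 and 4.79 (log2 2.40, SE 0.39). The Vwf levels rest on 8 and 4 UMIs in young and 107 and 78 in aged libraries. Edn1 (endothelin), Cd63 (a tetraspanin of these bodies) and Plat (tissue plasminogen activator) rose with log2 values of 1.20, 1.24 and 0.81. Myrip, which links Rab27a on Weibel-Palade bodies to actin, rose from 7.41 and 10.1 to 12.5 and 15.5 (log2 0.84, SE 0.22, edgeR adjusted p = 0.025), a call kept in 9 of 14 alternative settings and not made by DESeq2. Stx11 rose (log2 0.89), and Chml, an escort protein for attaching the lipid tail to Rabs, fell (log2 -0.76). The other genes that rose, outside the 8 with the smallest p and named after their values were seen, were Rab8b, a Rab of exocytosis, and Rabggtb, a subunit of the enzyme that attaches the tail (log2 0.53 each). The cargo genes had a median log2 difference of 1.20 and the 60 genes one of 0.11, beside -0.0063 over all genes tested. DESeq2 called 7 of the list. Endothelial clusters were filled unequally by age, and cluster 0, with Plat among its leading genes, had 135 and 75 young against 2132 and 1112 aged cells. Edn1 was a leading gene of clusters 5 and 8, with 207 and 86 against 846 and 504 cells and 207 and 212 against 535 and 355. All 8 mesangial markers were detected in the endothelial sums, at 36.0 and 65.2 CPM in young and 105 and 116 in aged libraries, and Cd63 is far higher in mesangial cells (1291 and 994 CPM in aged libraries). Macrophage markers summed to 2.05 and 5.28 CPM in young and 15.7 and 18.7 in aged endothelial cells, with 5 and 1 of the 7 at 0 in young libraries and none in aged ones. The part of these in the cargo genes was not tested. The count of 10 was 0 without young replicate 1, without young replicate 2 and without the filter on low counts.

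In mesangial cells 4 of 56 tested genes rose and 1 fell, where 4.28% and 2.34% of all 10922 genes tested did. The genes that rose were 4 of the 5 cargo genes tested, Edn1 (17.5 and 22.4 against 73.8 and 78.0 CPM, log2 2.06, edgeR adjusted p = 1.3e-04), Plat (log2 1.01), Angpt2 (log2 0.73) and Cd63 (log2 0.67). The cargo role is named for Weibel-Palade bodies, which belong to endothelial cells, and Vwf and Selp did not pass the filter in mesangial cells. The mesangial calls therefore say nothing about these bodies. With mixed clusters kept Plat turned to -0.66, and Angpt2 and Cd63 each kept their call in 7 of 14 alternative settings. Chml fell (log2 -0.85). None of the 5 effectors or 17 fusion genes tested was called, and 3 of each passed an unadjusted p of 0.05 (DESeq2 called 0 of each). Among those that passed, Rims2, Myo7a and Stxbp2 had 5 and 1, 1 and 2, and 3 and 2 UMIs in the young libraries. They passed the filter on low counts through the aged libraries, so a fall could hardly have been called for them. All 8 endothelial markers were detected in the mesangial sums, at a summed 1445 and 1428 CPM in young and 1512 and 1746 in aged libraries, and their part in the cargo genes was not tested. The median of the 56 genes was 0.23 beside -0.013 over all genes tested, and the count of 5 was 0 without aged replicate 1 and 1 without either young library. In parietal epithelial cells 0 of 27 tested genes were called by edgeR or DESeq2, and 3 passed an unadjusted p of 0.05. Of all 3755 genes tested there edgeR called 1.76% higher and 1.3% lower. The share of all genes at an unadjusted p of 0.05 was not counted in either class, so nothing is read from the counts at that threshold.

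**Figure D5:**
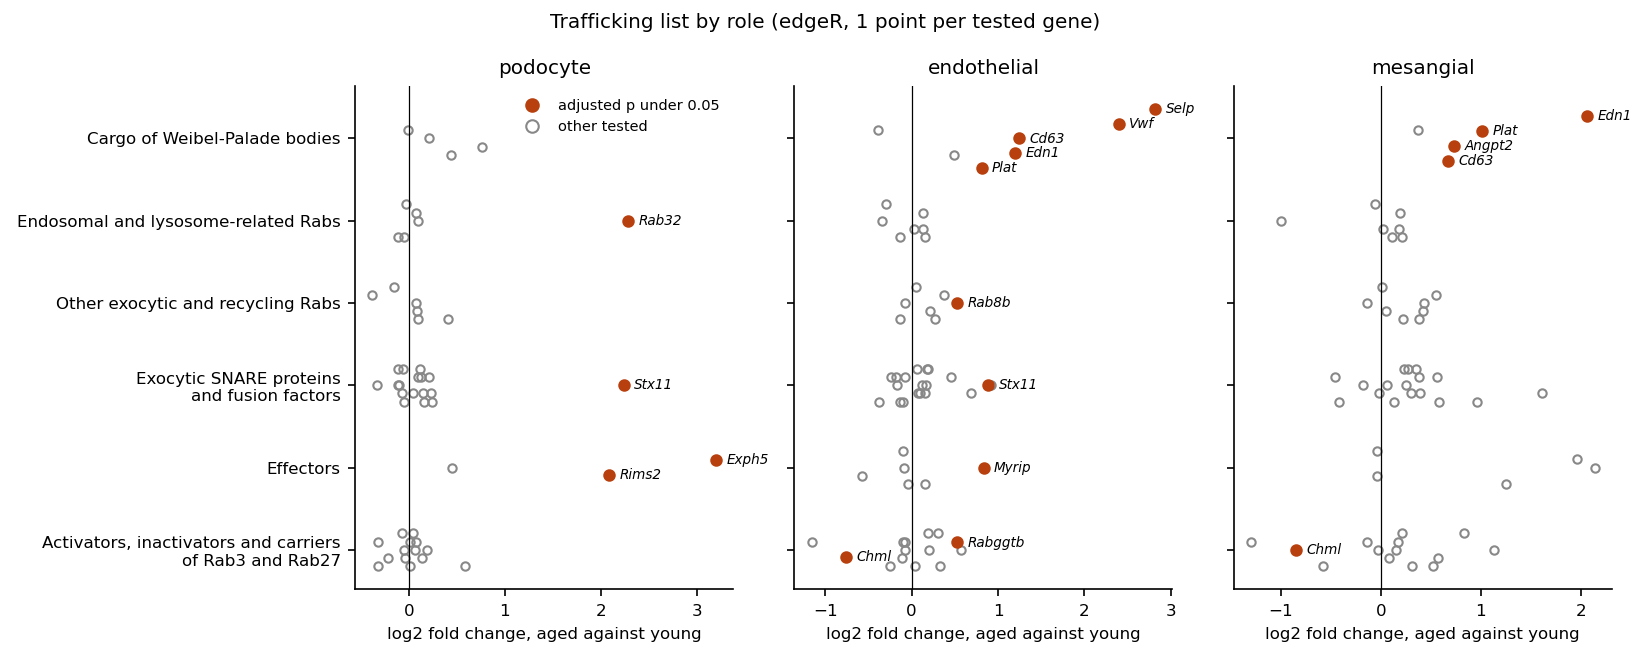
Log2 difference between aged and young libraries for each tested gene of the trafficking list by role, in podocytes, endothelial and mesangial cells (filled and named: edgeR adjusted p under 0.05). The cargo genes of Weibel-Palade bodies that passed the test lie to the right in endothelial cells (Selp 2.82, Vwf 2.40) and in mesangial cells (Edn1 2.06). These bodies belong to endothelial cells, and Selp and Vwf were not tested in mesangial cells.

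Genes with the most similar pattern were sought for each member over the 16 sums of 4 classes and 4 libraries, by the Pearson correlation of log2(CPM + 1), among genes of at least 10 CPM in the member's highest glomerular class. The sums share libraries and classes, so these values are a description. For Rab3c the closest were Mmp3 (r = 0.99), Tmem215 (0.98) and Cpne7 (0.98), of 7877 genes compared. For Rab3b they were Pak1, Itgb5 and Krcc1 (all 0.99), of 7561. For Rab20 they were Osmr, the receptor of oncostatin M (0.94), Birc3, an inhibitor of apoptosis (0.91), and Stat3, the transcription factor downstream of such receptors (0.90). For Rab3a they included Nptn (0.89) and Ptk7 (0.88). For the low members the closest were Taf2 with Rab3d (0.90), Ostf1 with Rab27a (0.90) and Fn1 with Rab27b (0.93), the last resting on 9 Rab27b UMIs in parietal epithelial cells.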

How the data were processed

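Per the file headers and the submitters' processing notes, the authors made the deposited counts with Cell Ranger 6.0.1, whereas the labels' protocol names 3.1.0, on GRCm38. They are raw UMI counts per gene and barcode, and no barcode had under 500 UMIs. Members, gene lists and tests were chosen with earlier results of these data known. Barcodes with at least 500 genes and at most 20% mitochondrial UMIs were kept, and the highest Scrublet scores (1876 of 29876) were removed because the automatic threshold marked 134. Clusters (scanpy 1.11.5, leidenalg 0.10.2, 1992 variable genes without members and list, 30 components, resolution 1) were named from markers, with limits set after the data were seen (marker level 0.35, at least 3 markers). Mixed cells (an unrelated class at 0.25) and clusters with over 50% of them were left out. UMIs were summed per class and library (at least 20 cells) and fitted with edgeR 4.0.16 (TMM, quasi-likelihood, age as the only term, 2 against 2). The alternatives were DESeq2 1.42.0, other normalization, filters, cell naming and clustering, a replicate block and leaving out each library, and 1, with clusters of low marker level put back, was added after the data were seen. The fit was tested on simulated data. Members are named in every class with at least 10 UMIs (otherwise by UMI count), list genes where called, up to 8 per class by smallest p, and the 3 genes most like each member, of which 1 is not reported here. Promoters are RefSeq's and positions GENCODE vM21's. Precision is limited by 18457791 to 42046542 UMIs per library.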

Additional observations from a re-analysis of the deposited data

Results flagged for a closer look

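Rab27a had both aged libraries above both young ones in podocytes (log2 2.42, SE 0.59) and both below in endothelial cells, where the difference was within its error (log2 -0.17, SE 0.29). By cluster, 1 of 8 endothelial clusters had both aged libraries above, 2 below and 5 overlapped. The difference between the classes was not tested.

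Rab20 in monocytes and dendritic cells, a class that entered no test, stood at 89.8 CPM (UMIs per 1000000 UMIs of the class) in aged replicate 2 (95% Poisson interval 76.0 to 105), above the intervals of both young libraries (19.3, 7.74 to 39.7, and 35.9, 17.9 to 64.2). Aged replicate 1 had 69.7 (55.6 to 86.3), which overlapped the interval of young replicate 2.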

How the results depend on the processing

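The members' log2 differences moved by less than the replicate SD in 210 of 237 alternative values and moved further in 27. No called member changed sign, and Rab3d in podocytes, close to 0, ranged from -0.090 to 0.089. Of 266 alternative values for named list genes, 182 kept direction and call, 83 lost the call and 1 reversed (Plat in mesangial cells, -0.66 with mixed clusters kept). Genes called in podocytes were 651, against 267 by DESeq2, 189 with cells named one by one, 273 at a mitochondrial limit of 10%, 22 with mixed clusters kept and 268 at resolution 2, and 302 to 1250 when 1 library was left out. For the trafficking list in podocytes the count of 4 was 2 by DESeq2, 2 one by one, 2 at the mitochondrial limit, 1 with mixed clusters and 2 at resolution 2, and 2 to 4 when 1 library was left out. Endothelial calls were 789, against 515 by DESeq2 and 0 with no filter on low counts, and 0 to 740 when 1 library was left out (0 without either young library). The list's 10 endothelial calls were 0 with no filter, and 0 to 8 when 1 library was left out. Mesangial calls were 723, against 418 by DESeq2, 430 one by one and 1353 with no filter, and 0 to 165 when 1 library was left out (0 without aged replicate 1). The list's 5 mesangial calls were 1 one by one, 3 at the mitochondrial limit, 3 with mixed clusters and 12 with no filter, and 0 to 3 when 1 library was left out. Parietal epithelial calls were 115, against 34 by DESeq2, 10 one by one, 221 with mixed clusters, 187 with no filter and 192 at resolution 2, and the list's 0 was 1 at resolution 2. The cause of these changes was not tested. The mitochondrial limit of 10% was not run for parietal epithelial cells, of which too few were then left in 1 library.

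Libraries with the same number did not deviate together (correlations 0.00884, 0.0708, 0.0371 and 0.0776 in podocytes, endothelial, mesangial and parietal epithelial cells). With 2 libraries per group these values cannot show whether libraries of the same number were handled together, and the main fit did not pair them. A fit with a replicate block called 1522 endothelial, 1670 mesangial and 239 parietal epithelial genes, and 14 list genes in mesangial cells. Leaving out a library leaves 1 in its group, which is then assumed to vary like the other group. Depth limits Rab27a, Rab27b and all parietal epithelial values most, since they rest on few UMIs.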
